A study of Mus musculus with 24 samples.

Results

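The S100 genes described here are 10 members of the family of small calcium-binding proteins: S100a1, S100a4, S100a6, S100a8, S100a9, S100a10, S100a11, S100a13, S100a14 and S100a16. The genes were chosen with earlier results of these data known, and are 10 of the 37325 gene names on the array. Their probes were taken by gene name, as every non-control probe whose name in the array files equalled a member's symbol. The RNA came from livers of female mice of mixed sv129/C57 strain, 8 weeks old, that were either wild type (WT) or lacked both liver X receptors, LXRα and LXRβ (KO), the nuclear receptors that sense oxysterols. Mice received 10 mg of fumonisin B1 (FB1) per kg of body weight each day for 1 month, or water. FB1 is a Fusarium mycotoxin that inhibits ceramide synthases. The 4 groups were thus KO with FB1, KO with water, WT with FB1 and WT with water, with 6 mice and 6 arrays in each and 1 array per mouse. The labels do not say in which cells or how the receptors were deleted, or how FB1 was given.

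S100 proteins carry a pair of EF-hand calcium-binding loops, and most work as dimers that expose a hydrophobic face when calcium binds and then grip a partner such as an annexin, a myosin heavy chain or a membrane pump. Some members also leave the cell and act on receptors of innate immunity: the S100a8 and S100a9 dimer, calprotectin, is the best known. In liver, S100a8 and S100a9 are known mainly from neutrophils and monocytes, and S100a4, S100a6 and S100a11 from fibroblasts, macrophages and bile duct cells more than from resting hepatocytes.

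A level below is the log2 of a probe's background-subtracted signal minus the log2 of that array's 75th percentile, so a level of 0 is the brightness of the 75th percentile spot. Levels of different S100 genes were not set against each other, because probe brightness also depends on the probe. The summed signals of marker lists do add different probes, so bright probes weigh most in them. A difference is a difference of group means in log2 units with its standard error (SE), and a gene was called at an adjusted p under 0.05 in limma's moderated test with Benjamini-Hochberg adjustment over 22088 genes. The 75th percentile spot ranged from 490 to 685 in intensity, 58.7 to 64.5% of spots were well above background, and arrays of one group correlated at 0.984 to 0.994. The targeted receptors were far lower in KO livers: Nr1h3 (LXRα) had levels of -5.13 to -2.56 over the 12 KO arrays and 4.71 to 5.06 over the 12 WT arrays, and Nr1h2 (LXRβ) had 0.31 to 0.80 over KO arrays and 4.02 to 4.34 over WT arrays. All 10 measured hepatocyte markers were well above background on every array.

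Of the 10 genes, 9 could be tested, and all of these were well above background on 24 of 24 arrays. S100a14 could not, since its probe was well above background on 6 arrays in all. With FB1 in KO mice, 3 of 9 tested members were higher (S100a4, S100a6 and S100a11) and 2 were lower (S100a1 and S100a13), where 41.2% of all genes were called, 16.5% as higher and 24.6% as lower. With FB1 in WT mice, S100a4 and S100a6 were higher and no member was lower, where 2.89% of all genes were called, 2.06% as higher and 0.824% as lower. Between genotypes, KO livers with FB1 had 3 members higher and 3 lower than WT livers with FB1, against a background of 32.8% of genes called, 14.5% as higher and 18.3% as lower. KO livers with water had 1 member higher and 0 lower than WT livers with water, against 15.2% of genes called, 7.21% as higher and 8.02% as lower. The FB1 difference itself was unlike between genotypes for 3 of 9 members, 2 larger and 1 smaller in KO, against 9.3% of all genes, 4.46% larger and 4.84% smaller. Groups of 6 arrays that did not overlap were seen for 3 members higher and 1 lower with FB1 in KO (8.89% and 9.48% of all genes), for 2 higher and 0 lower with FB1 in WT (1.29% and 1.03%), for 3 higher and 1 lower in KO against WT under FB1 (7.06% and 8.13%), and for 0 members in either direction in KO against WT with water (3.61% and 4.32%). The median difference over the 9 members was 0.74 for FB1 in KO and 0.62 for FB1 in WT. Over all tested genes it was -0.08 and -0.03 in the same order of genotypes. For the 3 further S100 genes that could be tested it was -0.28 and -0.36, and 0 of them were called in either. Since the members were chosen with earlier results known, the counts and medians describe these 9 genes and not the family. These comparisons share groups (each FB1 comparison shares its FB1 and its water arrays with the genotype comparisons), so they are not independent of each other.

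**Figure D1:**
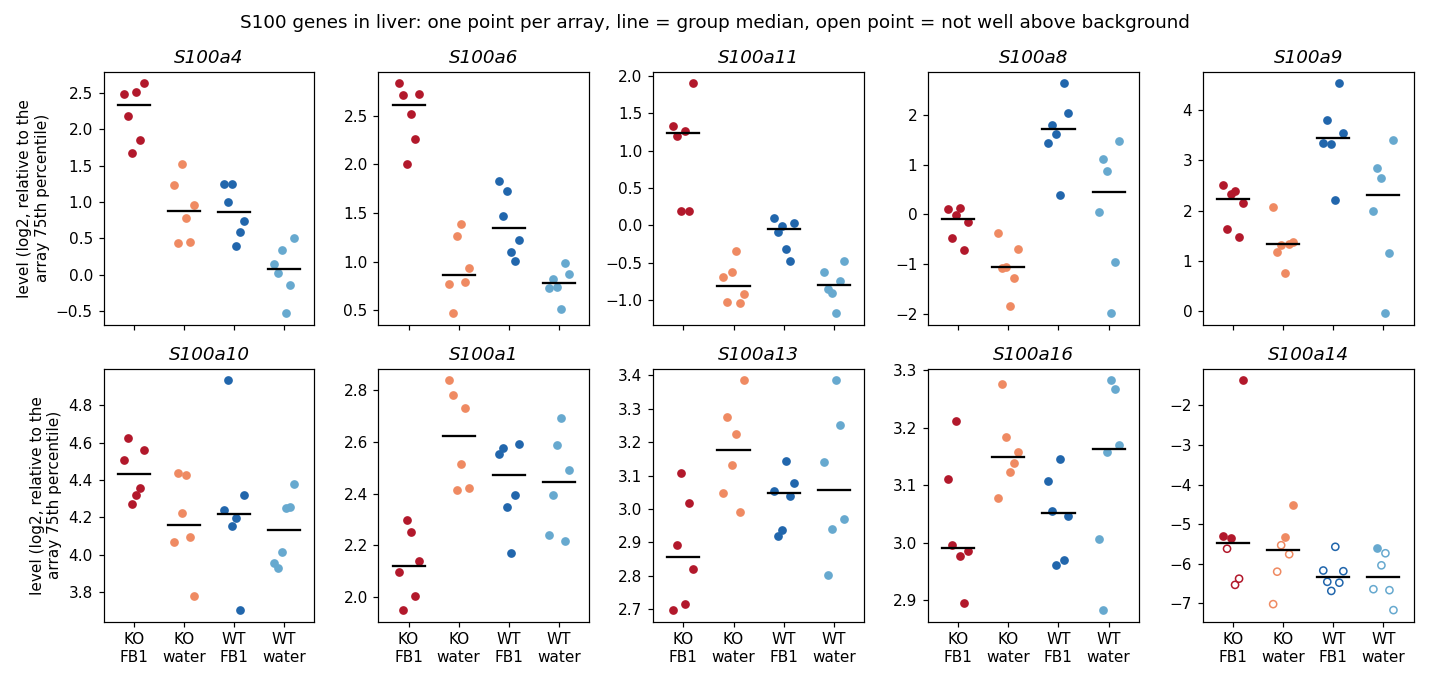
Level of each S100 gene on each of the 24 arrays (log2, relative to the array's 75th percentile; 6 arrays per group; black lines are group medians; open points were not well above background). S100a4, S100a6 and S100a11 are highest in KO livers with FB1, S100a8 and S100a9 are highest in WT livers with FB1, and S100a14 is above background on 6 arrays in all.

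With FB1 in KO livers the called rises were those of S100a4, S100a6 and S100a11. S100a4 binds the non-muscle myosin heavy chain Myh9 and is used as a marker of fibroblasts and of some macrophages, S100a6 (calcyclin) binds annexins and the ubiquitin-ligase adaptor Cacybp, and S100a11 binds annexin A1. These 3 genes rose with FB1 in KO livers by 2.50-fold to 3.45-fold, and were higher in KO than in WT livers under FB1 by 2.17-fold to 2.56-fold. Without FB1, only the S100a4 difference between genotypes was called.

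S100a4 levels ran from 1.68 to 2.63 (median 2.33) in KO livers with FB1, against 0.44 to 1.52 (median 0.87) in KO livers with water. In WT livers with FB1 they ran from 0.39 to 1.25 (median 0.87), against -0.53 to 0.50 (median 0.08) in WT livers with water. The KO groups did not overlap, whereas the lowest WT array with FB1 lay just under the highest WT array with water, and the KO livers with water had the same median as the WT livers with FB1. The difference for FB1 was 1.32 ± 0.21 in KO (adjusted p = 4.28e-05, limma) and 0.81 ± 0.21 in WT (adjusted p = 0.0371, limma). KO exceeded WT by 1.35 ± 0.21 with FB1 (adjusted p = 3.16e-05, limma) and by 0.84 ± 0.21 with water (adjusted p = 0.00779, limma). The FB1 difference was 0.51 ± 0.30 larger in KO than in WT, which did not pass the test (adjusted p = 0.308, limma). S100a4 was thus the member with a called difference in each of the 4 pairwise comparisons.

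S100a6 levels ran from 2.01 to 2.83 (median 2.61) in KO livers with FB1, against 0.47 to 1.38 (median 0.87) in KO livers with water. In WT livers they ran from 1.005 to 1.83 (median 1.35) with FB1, against 0.51 to 0.99 (median 0.78) with water. Neither pair overlapped, and every KO liver with FB1 was above every WT liver with FB1. The differences were 1.57 ± 0.17 for FB1 in KO (adjusted p = 3.44e-07, limma), 0.62 ± 0.17 for FB1 in WT (adjusted p = 0.0444, limma) and 1.12 ± 0.17 for KO against WT under FB1 (adjusted p = 1.64e-05, limma). With water the genotypes differed by 0.16 ± 0.17 (adjusted p = 0.6, limma). The FB1 difference was larger in KO than in WT by 0.95 ± 0.24 (adjusted p = 0.0137, limma).

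Both calls for FB1 in WT livers were close to the threshold. Without any single one of WT FB1 replicates 1, 2, 3 and 6 or WT water replicates 1, 2, 4 and 5, the S100a4 difference was 0.69 to 0.84 with adjusted p of 0.0504 to 0.105 (limma). The S100a6 difference was 0.53 to 0.65 with adjusted p of 0.0505 to 0.129 (limma) without WT FB1 replicate 1, 2, 3 or 6, WT water replicate 1, 2, 3, 4 or 6, KO FB1 replicate 4, or KO water replicate 1, 5 or 6. With the slide as a block, the adjusted p became 0.0508 for S100a4 and 0.056 for S100a6 (limma).

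S100a11 levels ran from 0.19 to 1.90 (median 1.23) in KO livers with FB1, against -1.04 to -0.34 (median -0.81) in KO livers with water. In WT livers they ran from -0.48 to 0.10 (median -0.05) with FB1, against -1.17 to -0.48 (median -0.79) with water. The KO livers with FB1 split into 4 arrays at 1.20 or more and 2 arrays at 0.19 and 0.20, and these 2 were still above every array of the other 3 groups. The difference for FB1 was 1.79 ± 0.22 in KO (adjusted p = 2.18e-06, limma), the largest of any member in that comparison. In WT livers it was 0.67 ± 0.22 and was not called (adjusted p = 0.106, limma), although the 6 FB1 arrays lay above the 6 water arrays. With the WT groups fitted alone it passed (adjusted p = 0.0264, limma). KO exceeded WT by 1.14 ± 0.22 under FB1 (adjusted p = 0.000342, limma), and the genotypes differed by 0.02 ± 0.22 with water (adjusted p = 0.967, limma). The FB1 difference was larger in KO by 1.12 ± 0.31 (adjusted p = 0.0266, limma), or 1.05 with an adjusted p of 0.0512 (limma) without KO FB1 replicate 1.

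**Figure D2:**
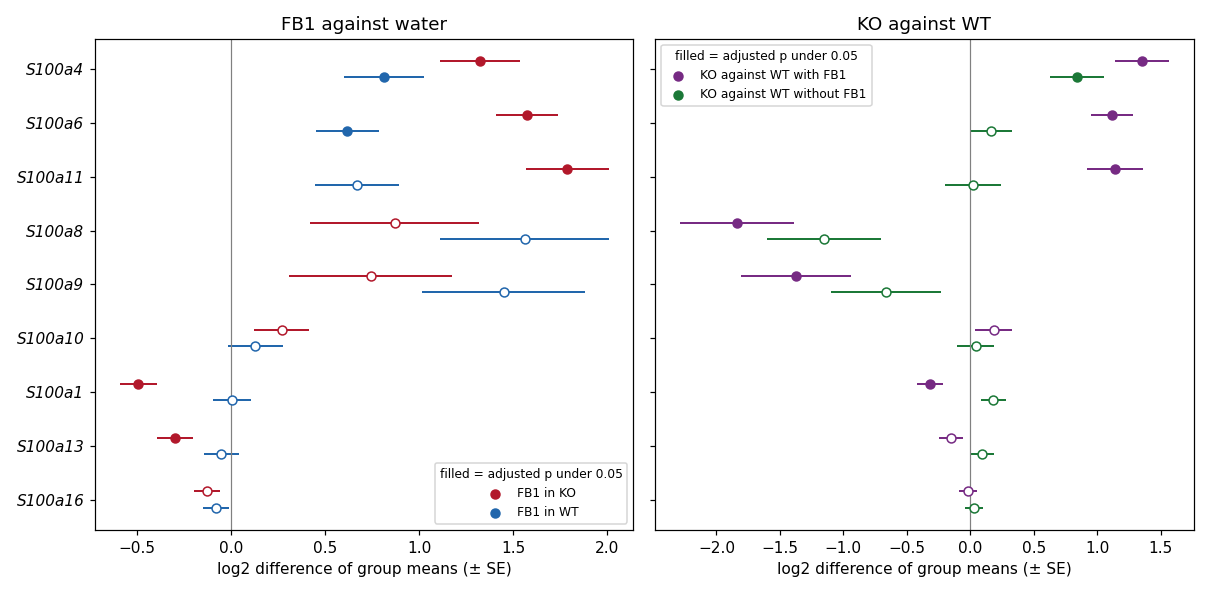
Differences of group means (log2, ± SE from limma) for the 9 tested S100 genes, FB1 against water on the left and KO against WT on the right; filled points had an adjusted p under 0.05. S100a4, S100a6 and S100a11 lie to the right in KO livers with FB1, S100a8 and S100a9 lie to the left in KO against WT, and S100a1 falls by 0.49 with FB1 in KO against a value near 0 in WT.

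The S100a11 probe may read more than S100a11. It lies on chromosome 3 at 93330022 to 93330081 (build mm9, plus strand), and its accession list in the array files also names a transcript of LOC102637129, an S100-A11 pseudogene. Over the 24 arrays, with group means taken off, the probe's values were most like those of LOC102637129 (r = 0.93), of the chromosome 12 pseudogene S100a11-ps (r = 0.92) and of a probe named in the files only by its own ID (r = 0.89), out of 22032 genes ranked. With FB1 these 3 probes rose in KO by 1.88 ± 0.19 (LOC102637129), 1.81 ± 0.19 (S100a11-ps) and 1.84 ± 0.20 (the unnamed probe), all close to the S100a11 value. The probes of S100a11 and S100a11-ps are shown because they can be compared base by base: capitals mark the 2 runs that are identical at the best ungapped alignment, which matches at 35 of 39 positions and whose longer run is 19 bases.
S100a11: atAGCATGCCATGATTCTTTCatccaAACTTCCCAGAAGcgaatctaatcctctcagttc
S100a11-ps: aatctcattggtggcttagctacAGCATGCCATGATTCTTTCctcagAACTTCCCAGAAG
The other 2 probes shared no run of 16 or more bases with the S100a11 probe when read in the same orientation. They were not aligned base by base. Whether these loci add to the S100a11 signal was not tested, so the S100a11 values are values of the probe.

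The probes of S100a6, S100a8 and S100a1 are shown because the gene rising with FB1, the calprotectin subunit lower in KO livers and the gene falling with FB1 in KO were read with them. All are 60 bases, and none shared a run of 16 or more bases with a probe of another gene on the array.
S100a6: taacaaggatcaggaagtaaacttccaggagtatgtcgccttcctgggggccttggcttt
S100a8: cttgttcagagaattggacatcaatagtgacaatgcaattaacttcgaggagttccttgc
S100a1: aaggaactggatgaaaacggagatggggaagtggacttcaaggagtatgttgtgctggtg
In build mm9 the S100a6 probe lies on chromosome 3 at 90418160 to 90418219 (plus strand), that of S100a8 at 90473778 to 90473837 (plus strand) and that of S100a1 at 90315191 to 90315250 (minus strand). All 12 probes of the 10 genes map to chromosome 3, between 90315191 and 93368496. Each probe also carries a RefSeq transcript accession of its gene. The S100a13 probe spans 90319950 to 90328319, so its 60 bases join 2 exons across an intron. Of the members' probes, S100a16's second probe shared 16 bases with a probe of Afap1, and the S100a11 probe is described above.

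S100a8 and S100a9, the subunits of calprotectin, followed another pattern: they were lower in KO than in WT livers under FB1, and they varied widely among WT livers. Calprotectin makes up a large part of neutrophil cytosol and binds Toll-like receptor 4 and RAGE when released. S100a8 levels ran from -0.72 to 0.13 (median -0.09) in KO livers with FB1, against 0.39 to 2.63 (median 1.71) in WT livers with FB1, with no overlap. With water they ran from -1.85 to -0.38 (median -1.07) in KO livers, against -1.99 to 1.47 (median 0.46) in WT livers. The WT livers with water thus covered most of the range seen in the study, with a standard deviation (SD) of 1.34 around a mean of 0.09 (n = 6), against 0.50 around -1.06 in KO livers with water. Under FB1 the KO livers were lower by 1.84 on the log2 scale, a difference of -1.84 ± 0.45 (adjusted p = 0.00284, limma), which is 3.58-fold.

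S100a9 levels ran from 1.48 to 2.51 (median 2.24) in KO livers with FB1, against 2.20 to 4.52 (median 3.44) in WT livers with FB1. With water they ran from 0.75 to 2.06 (median 1.33) in KO livers, against -0.03 to 3.41 (median 2.32) in WT livers. Under FB1 1 WT array, at 2.20, lay within the KO range, and the other 5 lay above every KO array. The difference was -1.37 ± 0.43 (adjusted p = 0.0174, limma). With water the genotype difference was -1.15 ± 0.45 for S100a8 (adjusted p = 0.0905, limma) and -0.67 ± 0.43 for S100a9 (adjusted p = 0.353, limma). WT water replicate 4 was the lowest array for both genes, at -1.99 for S100a8 and -0.03 for S100a9. Without it the same differences were -1.57 (adjusted p = 0.00597, limma) and -1.07 (adjusted p = 0.048, limma), so that array decides both calls.

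With FB1 in WT livers, S100a8 differed by 1.56 ± 0.45 (adjusted p = 0.0614, limma) and S100a9 by 1.45 ± 0.43 (adjusted p = 0.0725, limma), and neither was called. These are the largest point differences of any member in WT livers. Without WT FB1 replicate 4 or WT water replicate 6, both passed the test, with S100a8 at 1.81 (adjusted p = 0.0233, limma) or 1.84 (adjusted p = 0.022, limma) and S100a9 at 1.70 (adjusted p = 0.0266, limma) or 1.73 (adjusted p = 0.0237, limma). Without WT water replicate 2, S100a8 alone of the pair also passed, at 1.76 (adjusted p = 0.0391, limma). In KO livers the FB1 differences were 0.87 ± 0.45 for S100a8 (adjusted p = 0.126, limma) and 0.74 ± 0.43 for S100a9 (adjusted p = 0.178, limma). With the KO groups fitted alone these passed the test (adjusted p = 0.008 and 0.0173, limma). The FB1 difference in KO minus that in WT was -0.69 ± 0.63 for S100a8 and -0.71 ± 0.61 for S100a9, and neither passed the test (adjusted p = 0.546 and 0.518, limma).

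Markers of neutrophils moved with both genes. Of 12 tested neutrophil markers, 7 were lower and 0 higher in KO than in WT livers under FB1, among them Ly6g by -1.19 ± 0.16, the granule enzyme Mpo by -3.13 ± 0.54 and the granule peptide Camp by -2.14 ± 0.39. With water 4 were lower and 0 higher in KO livers, and with FB1 in WT livers 1 was higher (Camp, 1.45 ± 0.39, adjusted p = 0.0407, limma). With FB1 in KO livers Ltf (1.60 ± 0.53, well above background on 5 of 6 KO arrays with water) and Mmp8 (0.57 ± 0.17) were higher and Ly6g (-0.54 ± 0.16) was lower. Ngp was well above background on 6 WT arrays with FB1, 5 with water, 5 KO arrays with FB1 and 2 with water. It is counted among the 12 tested markers through the group in which it is high. The mean log2 level of the 13 markers ran from -2.41 to -1.70 in KO livers with FB1, -3.04 to -2.16 in KO livers with water, -1.52 to -0.47 in WT livers with FB1 and -2.92 to -0.84 in WT livers with water. Their summed linear signal, in multiples of the 75th percentile, was carried by Csf3r, and with that gene the groups overlapped. It ran from 102 to 119 in KO livers with FB1 and 107 to 116 in KO livers with water. In WT livers it was 112 to 136 with FB1 and 105 to 122 with water. Without Csf3r the sum ran from 2.78 to 3.76 in KO livers with FB1 and 2.65 to 3.33 in KO livers with water. The WT values without it were 6.12 to 14.2 with FB1 and 3.53 to 9.70 with water. Of all tested genes, 18.3% were lower in KO than in WT livers under FB1 and 8.02% with water. With FB1, 2.06% were higher in WT and 41.2% were called in KO. The part of neutrophil number in the S100a8 and S100a9 values was not tested. In whole-liver RNA, fewer cells of a type and less RNA per cell cannot be told apart.

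S100a8 and S100a9 were each other's most similar gene among 22032, with r = 0.98 over the 24 arrays after group means were taken off (Spearman's rho = 0.94, r = 0.96 without the 2 arrays farthest from the S100a8 median). The next most similar to S100a8 were the neutrophil granule gene Ltf (lactoferrin, r = 0.90) and Chil3 (r = 0.84), and to S100a9 Ltf (r = 0.87) and the neutrophil collagenase Mmp8 (r = 0.81). Each had r = 0.95 with the mean log2 level of the neutrophil markers (rho = 0.92 for both, and 0.91 for both as r without the 2 farthest arrays). These values describe the same 24 arrays with the same scaling and carry no test.

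**Figure D3:**
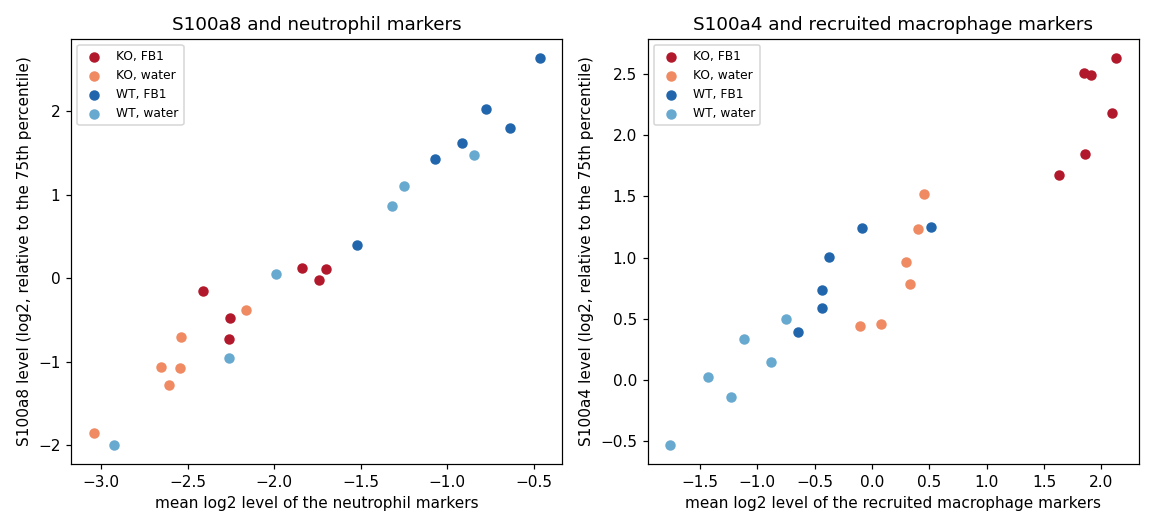
Left, S100a8 level against the mean log2 level of the 13 neutrophil markers; right, S100a4 level against that of the 12 recruited macrophage markers; 1 point per array, 24 arrays, coloured by group. S100a8 is higher on arrays where the neutrophil markers are higher, and WT livers with water are spread over most of the line; the KO livers with FB1 stand at the upper right for S100a4.

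S100a10 differs from the rest of the family in that it binds annexin A2 without calcium and helps to hold plasminogen and its activator at the cell surface. On the brighter of its 2 probes, which stood for the gene, S100a10 levels ran from 4.27 to 4.62 (median 4.43) in KO livers with FB1, 3.78 to 4.44 (median 4.16) in KO livers with water, 3.70 to 4.93 (median 4.22) in WT livers with FB1 and 3.93 to 4.38 (median 4.13) in WT livers with water. No comparison was called on that probe, and the FB1 difference was 0.27 ± 0.15 in KO (adjusted p = 0.151, limma) and 0.13 ± 0.15 in WT (adjusted p = 0.688, limma). The groups overlapped throughout. The other probe, on chromosome 3 at 93368276 to 93368335, disagreed on the genotypes: KO exceeded WT by 0.66 ± 0.20 with water and by 0.61 ± 0.20 with FB1. Both passed the test over all tested probes (adjusted p = 0.027 and 0.0224, limma), where 13.7% and 30.9% of probes were called, while FB1 called 39.2% of probes in KO and 2.51% in WT and the difference of the FB1 effects 7.96%. The brighter probe gave 0.04 ± 0.15 and 0.18 ± 0.15. On this probe KO FB1 replicate 3, at 2.04, lay far below the other arrays of its group, which were at 3.003 or more, and WT FB1 replicate 2, at 3.02, lay above the other WT arrays with FB1, which were at 2.34 or less. Its levels with water were 2.37 to 2.96 in KO livers and 1.53 to 2.58 in WT livers. The probes do not overlap in position, and which of them follows the S100a10 transcript was not tested.

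S100a1, S100a13 and S100a16 showed small differences, and where called these were downward. S100a1 is best known from heart muscle, where it binds the sarcoplasmic reticulum calcium pump, and S100a13 takes part in the release of Fgf1 and Il1a, which leave the cell without a signal peptide. S100a1 levels ran from 1.95 to 2.30 (median 2.12) in KO livers with FB1, against 2.42 to 2.84 (median 2.62) in KO livers with water, with no overlap. In WT livers they ran from 2.17 to 2.59 (median 2.47) with FB1, against 2.22 to 2.69 (median 2.44) with water. S100a1 fell by 0.49 on the log2 scale with FB1 in KO, a difference of -0.49 ± 0.10 (adjusted p = 0.000442, limma) and 1.41-fold, whereas in WT livers the difference was 0.00 ± 0.10 (adjusted p = 0.993, limma). Under FB1 the KO livers were lower than WT livers by a difference of -0.32 ± 0.10 (adjusted p = 0.0177, limma), and with water the genotype difference was 0.18 ± 0.10 (adjusted p = 0.258, limma). The FB1 difference in KO minus that in WT was -0.50 ± 0.14 (adjusted p = 0.0284, limma). It was -0.47 to -0.45 with adjusted p of 0.0505 to 0.0534 (limma) without any single one of KO FB1 replicate 2, KO water replicates 1, 2 and 5, WT FB1 replicate 6 and WT water replicate 1.

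S100a13 levels ran from 2.70 to 3.11 (median 2.86) in KO livers with FB1, against 2.99 to 3.39 (median 3.18) in KO livers with water, and the 2 groups overlapped. In WT livers they ran from 2.92 to 3.14 with FB1, against 2.80 to 3.38 with water. The FB1 difference was -0.30 ± 0.09 in KO (adjusted p = 0.0139, limma) and -0.05 ± 0.09 in WT (adjusted p = 0.808, limma). After quantile normalization the KO value was -0.20 (adjusted p = 0.0752, limma), and in the authors' values -0.18 (adjusted p = 0.125, limma), so the S100a13 call depends on how arrays were scaled. No other S100a13 comparison was called.

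S100a16, a broadly expressed member, had levels of 2.89 to 3.21 in KO livers with FB1, 3.08 to 3.28 in KO livers with water, 2.96 to 3.15 in WT livers with FB1 and 2.88 to 3.28 in WT livers with water on its brighter probe. No comparison was called, and the largest difference was -0.13 ± 0.07 for FB1 in KO (adjusted p = 0.139, limma). Its other probe gave -0.22 ± 0.06 in that comparison and passed the test over all probes (adjusted p = 0.00577, limma), where 39.2% of probes were called. The 2 probes thus had the same sign and fell on different sides of the threshold.

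S100a14, known from epithelia, was close to background. Its probe was well above background on 3 of 6 KO arrays with FB1, 2 of 6 with water, 0 of 6 WT arrays with FB1 and 1 of 6 with water. Levels ran from -6.54 to -1.37 in KO livers with FB1, where replicate 6 at -1.37 stood far above the next array at -5.31, and from -7.17 to -4.53 in the other groups. No fold was formed for it. Of the 7 further S100 genes on the array, S100a5, S100a7a and S100z were well above background on 0 arrays, S100b was on 2, and S100a2, S100a3 and S100g could be tested. S100g, the vitamin D-dependent calcium-binding protein of the gut, had levels of -6.24 to -4.61 in KO livers with water, against -4.13 to -2.43 in WT livers with water, a difference of -1.83 ± 0.34 (adjusted p = 0.000391, limma). Under FB1 it was lower in KO by a difference of -1.25 ± 0.34 (adjusted p = 0.00617, limma), and S100a3 was lower by a difference of -0.72 ± 0.19 (adjusted p = 0.00579, limma). All 3 are dim. S100g was well above background on 5 of 6 KO arrays with FB1 and 4 of 6 with water. S100a3 was on 5 of 6 in both KO groups. S100g and S100a3 were on all 6 arrays of each WT group, and entered the test only through the groups in which they are high. S100a2 was called in no comparison, with differences between -0.42 and 0.35.

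Partners and receptors of S100 proteins moved in both directions. With FB1 in KO livers 10 of 25 rose and 7 fell, and with FB1 in WT livers 2 rose (Anxa2, by 1.02 ± 0.24, and Ahnak, by 0.58 ± 0.14) and 0 fell. The shares over all genes were 16.5% risen and 24.6% fallen in KO, and 2.06% and 0.824% in WT. The median difference over the list was 0.01 in KO and 0.03 in WT. Anxa2 (annexin A2, the partner of S100a10) had levels of 4.56 to 5.94 in KO livers with FB1, against 2.26 to 3.16 in KO livers with water, and rose by 2.66 ± 0.24 (adjusted p = 4.46e-08, limma) or 6.32-fold. Anxa5 rose in KO by 1.27 ± 0.15 and the plasminogen activator Plat by 2.73 ± 0.33, but Plat was well above background on 6 KO arrays with FB1, 5 with water, 4 WT arrays with FB1 and 2 with water, and entered the test only through the group in which it is high. Anxa1, the partner of S100a11, rose by 1.39 ± 0.18. Among S100a13 cargo and partners, Fgf1 (-1.20 ± 0.16), Il1a (-1.25 ± 0.31) and Syt1 (-0.68 ± 0.15) fell with FB1 in KO, in the same comparison in which S100a13 was lower. Il1a was well above background on 5 of the 6 KO arrays with FB1. Myh9, the myosin bound by S100a4, rose by 0.54 ± 0.10, and the S100a6 partner Cacybp fell by 0.29 on the log2 scale.

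Under FB1, 9 of 25 partners were higher and 7 lower in KO than in WT livers. With water 2 were higher and 4 lower, of which Cd14 (-1.39 ± 0.18), a co-receptor of Toll-like receptor 4, had the smallest p. Of receptors of S100a8 and S100a9, Cd36 was lower in KO livers with water (-0.96 ± 0.21) and under FB1 (-0.82 ± 0.21), and Ly96, the other co-receptor of Toll-like receptor 4, was lower in both (-0.57 ± 0.19 with water and -0.65 ± 0.19 under FB1). Tlr4 rose with FB1 in KO by 0.27 ± 0.08. Not all of these receptors had lower levels in KO livers. Under FB1 the medians in KO and WT livers were -0.49 and -0.67 for Tlr4, 2.30 and 2.18 for Ager (RAGE) and 0.96 and 0.88 for Cd14. With water they were -0.80 and -0.73 for Tlr4 and 2.22 and 2.16 for Ager. For 8 of 25 partners the FB1 difference was unlike between genotypes, 5 larger and 3 smaller in KO. Cd14 (1.38 ± 0.26), Anxa5 (1.12 ± 0.21) and Anxa2 (1.64 ± 0.34) led. Over all genes 32.8% were called in KO against WT under FB1, 15.2% with water and 9.3% for the difference of the FB1 effects.

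Other proteins with EF-hands were described from a list of 20, of which 19 could be tested. With FB1 in KO livers 8 of 19 tested rose and 1 fell, and with FB1 in WT livers 0 of 19 were called, the smallest adjusted p being 0.148 (limma) for Calm3, at 0.23. The calpain subunit Capn1 rose by 0.53 ± 0.08 and Efhd2 by 0.70 ± 0.12 in KO, while Pdcd6 fell by 0.35 on the log2 scale. These 3 differences were smaller in size than those of S100a4, S100a6 and S100a11 in the same comparison. Under FB1 8 were higher and 1 lower in KO than in WT livers, led by Myl12a (0.52 ± 0.08). With water 1 was higher and 2 lower, led by Rcn2 (-0.38 ± 0.10). Beside these counts, 41.2% of all genes were called with FB1 in KO (16.5% higher) and 2.89% with FB1 in WT. In KO against WT, 32.8% were called under FB1 (14.5% higher) and 15.2% with water. The counts were not tested against these shares.

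Markers of recruited macrophages were among those that rose with FB1 in KO livers, as S100a4, S100a6 and S100a11 did. Of 12 recruited macrophage markers, 11 rose and 0 fell with FB1 in KO livers, led by Trem2 (2.87 ± 0.29), Lyz2 (1.28 ± 0.14) and Ms4a7 (2.12 ± 0.24), and 6 rose and 0 fell with FB1 in WT livers, among them Trem2 (1.77 ± 0.29). In KO against WT livers, 10 were higher and 1 lower under FB1, and 7 higher and 2 lower with water. Against the direction of most, Ly6c2 had a median of 3.11 in KO and 5.26 in WT livers under FB1, and 3.01 and 5.29 with water. Cd9 had a median of 1.35 in KO and 2.07 in WT livers with water. The summed signal of the 12 markers ran from 117 to 150 in KO livers with FB1 and 43.9 to 64.95 in KO livers with water. In WT livers it was 60.7 to 96.3 with FB1 and 57.2 to 110 with water, in units of the 75th percentile. The sum is carried by bright genes such as Lyz2 and Ly6c2, and the mean log2 level gave another order of the water groups: 1.63 to 2.13 in KO livers with FB1, -0.11 to 0.45 in KO livers with water, -0.64 to 0.51 in WT livers with FB1 and -1.76 to -0.75 in WT livers with water. All 12 were well above background in both KO groups. Gpnmb was on 1 of 6 WT arrays with FB1 and 0 of 6 with water, and entered the test only through the KO groups, in which it is high. Mmp12 was on 1 of 6 WT arrays with water. Among all genes, 16.5% rose and 24.6% fell with FB1 in KO, and 2.06% rose with FB1 in WT. In KO against WT, 14.5% were higher and 18.3% lower under FB1, and 7.21% and 8.02% with water.

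Of 12 stellate cell and fibroblast markers, 9 rose with FB1 in KO livers (led by Lum, 1.59 ± 0.15, Col1a2, 1.68 ± 0.17, and Col1a1, 2.75 ± 0.32) and 4 rose in WT livers, and 0 fell in either. The summed signal of this list ran from 130 to 159 in KO livers with FB1, 89.4 to 109 in KO livers with water, 91.9 to 114 in WT livers with FB1 and 73.3 to 94.5 in WT livers with water. Of 5 mesothelial markers, 3 rose with FB1 in KO (Wt1, 2.08 ± 0.35, Msln, 1.34 ± 0.38, and Lrrn4, 1.24 ± 0.38) and 0 in WT. Lrrn4 was well above background on all 6 KO arrays with FB1 but on 3 of 6 with water, and entered the test through the group in which it is high. Their summed signal ran from 1.15 to 2.42 in KO livers with FB1, 0.29 to 1.56 in KO livers with water, 0.55 to 1.62 in WT livers with FB1 and 0.65 to 1.51 in WT livers with water. Of 7 tested cholangiocyte markers, Sox9 (1.89 ± 0.27) rose with FB1 in KO. For all genes the shares were 16.5% risen and 24.6% fallen with FB1 in KO, and 2.06% and 0.824% in WT. The part of these cell types in the S100 values was not tested.

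Among Kupffer cell markers, 1 of 8 rose and 2 fell with FB1 in KO, and 0 were called in WT. They were lower in KO livers, 8 of 8 with water and 7 of 8 under FB1, where S100a4 was higher. Of hepatocyte markers, 6 of 10 fell with FB1 in KO livers (led by Cps1, -0.83 ± 0.14, Tat, -1.17 ± 0.20, and Pck1, -0.73 ± 0.16), alongside S100a1 and S100a13. Their summed signal ran from 2478 to 3683 in KO livers with FB1, 3143 to 3756 in KO livers with water, 3199 to 3699 in WT livers with FB1 and 3316 to 3652 in WT livers with water. With group means taken off, the mean log2 level of the hepatocyte markers had r = 0.42 with S100a1 and 0.09 with S100a13. It had -0.46 with S100a4, -0.58 with S100a6 and -0.54 with S100a11. For S100a1, r was larger in size with the T and NK cell (-0.65), endothelial (-0.59) and mesothelial (-0.56) markers. The part of these cell types in the S100a1 and S100a13 values was not tested. Of 9 endothelial markers, 6 fell with FB1 in KO, led by Stab2 (-0.94 ± 0.13). All 5 tested B and plasma cell markers rose in that comparison, led by Jchain (1.26 ± 0.22). In it 0 of 6 tested T and NK cell markers were called, and 1 of 5 erythroid markers (Klf1, -1.60 ± 0.20) fell. As a background, 16.5% of all genes rose and 24.6% fell with FB1 in KO, and 2.89% were called in WT. In KO against WT, 8.02% of all genes were lower with water and 18.3% under FB1.

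Likeness within groups was also described. With group means taken off, S100a4, S100a6 and S100a11 had r of 0.71 (S100a4 with S100a6, rho = 0.70), 0.71 (S100a4 with S100a11, rho = 0.71) and 0.74 (S100a6 with S100a11, rho = 0.77) over 24 arrays. Without the 2 arrays farthest from the median of the first gene, these were 0.67, 0.72 and 0.68. S100a1 and S100a13, both lower with FB1 in KO, had r = -0.15. The genes most like S100a6 were Crip1 (r = 0.90), Anxa2 (r = 0.83) and Tgfb2 (r = 0.83), and Anxa2 had r = 0.80 with S100a11 and 0.78 with S100a4, but 0.40 with its known partner S100a10. Without the 2 farthest arrays these were 0.73, 0.77 and 0.21. The genes most like S100a4 were Traf1 (r = 0.91), Nfatc2 (r = 0.90) and Pik3cd (r = 0.88).

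**Figure D4:**
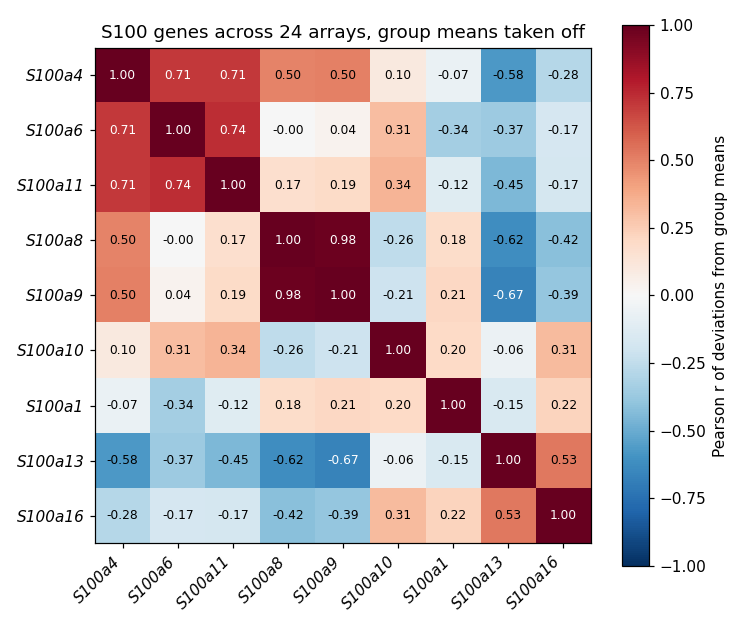
Pearson r between the 9 tested S100 genes over 24 arrays after each group's mean was taken off each gene; rows and columns are genes and the colour runs from -1 to 1. S100a8 and S100a9 stand at 0.98, and S100a4, S100a6 and S100a11 form a second set at 0.71 to 0.74.

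The mean log2 level of the 25 partners had r = 0.87 with S100a6, 0.81 with S100a4 and 0.79 with S100a11. That of the recruited macrophage markers had r = 0.77 with S100a4, 0.68 with S100a6 and 0.56 with S100a11, and that of the stellate cell and fibroblast markers had 0.51, 0.70 and 0.64 with the same genes. In the same order, r was 0.03, 0.59 and 0.33 for the mesothelial markers and 0.25, 0.58 and 0.47 for the cholangiocyte markers. The other members were most like genes outside the lists: S100a1 was most like Dlst (r = 0.86), Dis3l2 (0.83) and Prxl2b (0.80), S100a13 like Ilk (0.88), Smarca2 (0.86) and Klhl17 (0.85), S100a16 like Ppox (0.86), Fbxw8 (0.86) and Serhl (0.84), and S100a10 like Tppp3 (0.74), Thbs3 (0.73) and Cul2 (0.73). All of these points share the 24 arrays and their scaling. The genes named as most like a member are the highest of 22032 ranked. How high such an r runs by chance was not tested.

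The promoters of the members that moved together are shown for what precedes their starts. RefSeq's table of promoters (build GRCm38.p6) held 9 windows, each from before to just after an annotated start, for 8 of the 10 genes. They were searched on both strands for 7 motifs, and the share of the 32851 windows of the same length that hold each is given with it. The TATA box was searched as TATAAA, found in 13.6% of windows. The GC box was searched as GGGCGG, found in 35.7%. The AP-1 motif was searched as TGANTCA, found in 7.81%. The C/EBP motif was searched as TTGCNNAA, found in 10.8%. The PU.1 motif was searched as GAGGAA, found in 28.3%. The TEAD motif was searched as GGAATG, found in 14.7%. The E-box was searched as CACGTG, found in 7.15%. The bases before the starts follow, 120 for each gene and 150 for S100a11, read 5′ to 3′ on the gene's strand, with TATA box, GC box and AP-1 matches in capitals.
S100a4: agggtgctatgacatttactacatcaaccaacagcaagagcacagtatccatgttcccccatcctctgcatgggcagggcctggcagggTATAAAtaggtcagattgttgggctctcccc
S100a6: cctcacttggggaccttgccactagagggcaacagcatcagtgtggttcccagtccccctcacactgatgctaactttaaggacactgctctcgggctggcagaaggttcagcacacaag
S100a11: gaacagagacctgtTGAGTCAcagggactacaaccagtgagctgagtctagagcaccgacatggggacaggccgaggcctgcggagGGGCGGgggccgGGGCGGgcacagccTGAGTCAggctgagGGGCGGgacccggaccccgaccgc
S100a8: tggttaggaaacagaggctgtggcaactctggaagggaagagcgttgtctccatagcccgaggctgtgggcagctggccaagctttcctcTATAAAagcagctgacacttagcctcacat
S100a9: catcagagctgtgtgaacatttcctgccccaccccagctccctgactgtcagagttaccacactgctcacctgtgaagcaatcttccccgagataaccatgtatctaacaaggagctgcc
These are chr3:90603650-90603769, chr3:90612774-90612893, chr3:93520346-93520495 and chr3:90668951-90669070 on the plus strand and chr3:90695722-90695841 on the minus strand.

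The 3 genes that rose together did not have the same matches. The S100a4 window had TATAAA at -31, counted from the annotated start, the S100a11 window had GGGCGG at -64, -52 and -24 and TGAGTCA at -136 and -38, and the S100a6 window held only CACGTG, at 15. S100a8 had TATAAA at -30, and S100a9 had that hexamer at 1, at the annotated start itself, GGGCGG at -223 and TTGCTTAA at -236. GAGGAA or its complement was found in S100a4 at 20, in S100a8 at -170 and -36 and in S100a11 at -153. S100a11 also held CACGTG at -223. The windows of S100a16, which had no called difference, also held matches: GGGCGG at -30, TGAATCA at -192 and the complement of GAGGAA at -180. A match is a run of letters and does not show that a factor binds there.

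S100a1 and S100a13, which were both lower with FB1 in KO, start on opposite strands with 104 bases between their starts. That stretch, chr3:90514331-90514434 on the plus strand, held none of the 7 motifs.
S100a1 and S100a13: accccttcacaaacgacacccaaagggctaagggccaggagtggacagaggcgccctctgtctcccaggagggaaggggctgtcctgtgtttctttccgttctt

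Each of the 3 slides held 2 arrays of every group. All 17 called member differences kept their sign within each slide. S100a6 with FB1 in KO was 1.46, 1.41 and 1.85 within the slides, and S100a11 was 1.53, 1.54 and 2.30. S100a4 with FB1 in KO was 1.02, 0.99 and 1.95, and in WT it was 0.97, 1.22 and 0.24. S100a8 in KO against WT was -2.73, -1.56 and -1.24 under FB1, and -1.25, 0.02 and -2.22 with water, where it was not called. S100a1 with FB1 in KO was -0.60, -0.36 and -0.53. With the slide as a block, 15 of the 17 calls held, all but S100a4 and S100a6 with FB1 in WT.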

How the data were processed

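Total liver RNA of 24 female mice was labelled with Cy3 and hybridised to 1-colour Agilent mouse arrays, 1 per mouse. Per the file headers, Agilent Feature Extraction 10.10.1.1 made the deposited intensity files, in which the processed intensity is background-subtracted. The authors also deposited processed log2 values per probe, used here as an alternative. The submitters' processing notes name limma. How those values were scaled is not stated in the labels.

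Main values were log2 of the processed intensity minus each array's 75th percentile. Spots marked as outliers (64 to 121 per array of 59305) were left out. None was saturated. Probes entered the test if all arrays of 1 group or more had them well above background, with at least 4 values in each group. A gene was its brightest tested probe (22088 genes). The 5 comparisons came from 1 limma 3.58.1 fit of 4 group means over 24 arrays in R 4.3.3 (lmFit, eBayes), and p-values were adjusted by Benjamini-Hochberg and called under 0.05. It was tested on simulated data. The number of arrays limits the precision.

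The members and lists were chosen with earlier results of these data known. The text names all 10 members, every tested further S100 gene, up to 3 called genes with the smallest p of each list in each comparison, and the 3 genes most like each member; partners were further named by role, and single markers also with their values already seen. The alternatives tried were quantile normalization, normexp background (offset 50), the authors' values, stricter and no filters, the mean of probes, slide and replicate blocks, values within slides, each comparison's groups alone, a 1.5-fold minimum and leaving out each array. Python 3.11.15 and matplotlib 3.10.9 were used for sequences and figures.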

Additional observations from a re-analysis of the deposited data

Results flagged for a closer look

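For 3 members the FB1 difference was unlike between KO and WT mice by the interaction term of the limma fit. S100a6 had a difference of 0.95 ± 0.24 (adjusted p = 0.0137, limma), with FB1 arrays above water arrays in both genotypes. S100a11 had 1.12 ± 0.31 (adjusted p = 0.0266, limma) and is the probe that may also read pseudogene copies. S100a1 had -0.50 ± 0.14 (adjusted p = 0.0284, limma), a fall in KO livers beside a difference of 0.00 ± 0.10 in WT livers. Their signs were the same within each of the 3 slides, at 0.99, 0.38 and 1.49 for S100a6, 0.98, 0.49 and 1.88 for S100a11, and -0.66, -0.28 and -0.55 for S100a1. By Dixon's test at the 95% level, 3 arrays stood apart from the other 5 of their group, among 48 pairs of a probe and a group. S100a14 was at -1.37 in KO FB1 replicate 6, with the next array at -5.31. The dimmer probe of S100a10 was at 2.04 in KO FB1 replicate 3, with the next at 3.003, and at 3.02 in WT FB1 replicate 2, with the next at 2.34. Chance alone marks about 5% of such groups.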

How the results depend on the processing

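Of the 17 called member differences, 12 stayed called under all settings other than a 1.5-fold minimum and leaving out arrays, 10 of them also with that minimum, and 13 stayed called when each array was left out in turn. The count of called members with FB1 in WT, 2 in the main setting, was 1 in the authors' values and with the groups of the comparison alone, and 0 without the filter on dim probes or with the slide as a block. It was 0 to 4 on leaving out an array: 0 without WT FB1 replicate 1, 2, 3 or 6 or WT water replicate 1 or 4, 1 without KO FB1 replicate 4, KO water replicate 1, 5 or 6 or WT water replicate 2, 3 or 5, and 4 without WT FB1 replicate 4. Without WT water replicate 6 the call of S100a6 was lost, and calls of S100a8 and S100a9 were gained. With FB1 in KO the count was 5, and 3 with a minimum of 1.5-fold. Calls were also gained there: S100a8 and S100a9 with the groups alone (7 called), S100a16 with the mean of probes (adjusted p = 0.0217, limma), and S100a10 after quantile normalization (0.41, adjusted p = 0.0295, limma) and in the authors' values (0.42, adjusted p = 0.0377, limma). KO against WT with water gave 1 to 3 called members on leaving out an array, with 3 without WT water replicate 4, and for the difference of the FB1 effects the count was 3, and 1 without the filter. The lost calls also took in S100a11 for the difference of the FB1 effects in the authors' values (adjusted p = 0.0506, limma).

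The sign turned for uncalled differences only. Of 135 values within single slides 18 had the other sign, among them the difference of effects on slide 3 for S100a8 (0.99) and S100a9 (1.19) and S100a9 in KO against WT with water on slide 2 (0.42). After quantile normalization S100a13 with FB1 in WT was 0.0161 and S100a16 in KO against WT under FB1 was 0.0336. In the authors' values these were 0.0269 and 0.0552, and S100a16 with FB1 was 0.0125 in WT and 0.0043 in KO. On leaving out arrays, S100a1 with FB1 in WT ran from -0.0419 to 0.0563, S100a10 from -0.00881 to 0.24 and S100a13 from -0.11 to 0.00693. In KO against WT with water S100a10 ran from -0.0116 to 0.12, S100a11 from -0.0634 to 0.0857 and S100a16 from -0.0175 to 0.0626, and S100a16 under FB1 ran from -0.0549 to 0.00876. The causes were not tested.

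Over all genes, FB1 in WT called 638, and 381 with its groups alone, 417 at 1.5-fold or more and 386 without WT FB1 replicate 1. A 1.5-fold minimum left 3737 of 9097 for FB1 in KO, 3255 of 7246 for KO against WT under FB1, 1831 of 3363 with water and 1304 of 2055 for the difference of effects, which was 1258 without the filter. Replicate numbers did not pair the mice, with correlations of same-numbered arrays between -0.20 and 0.24. With the replicate block, S100a6 with FB1 in WT (0.62, adjusted p = 0.0788, limma) and S100a1 for the difference of effects (-0.50, adjusted p = 0.057, limma) were not called, and S100a8 with FB1 in WT was (1.56, adjusted p = 0.0416, limma). The count of called members under the block was 5 for FB1 in KO and 2 for FB1 in WT, 6 for the genotypes under FB1 and 1 with water, and 2 for the difference of effects. Dim probes such as those of S100a14 and S100g limit what can be said of those genes.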
